A study of Arabidopsis thaliana with 12 samples.

Results

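PPDK, ATL8 and AKINBETA1 are genes of Arabidopsis thaliana known for their response to darkness and sugar starvation. They were chosen by name, with earlier results of these data known. Their probe sets are those that the platform annotation ties to each of them alone. Each gene had 1 such probe set, which makes 3 of 22746 probe sets and 3 of 13286 genes with a probe set of their own. The samples were whole 14-day-old seedlings of ecotype Col-0 that carry 35S:HF-RPL18, a transgene for His6-FLAG-tagged ribosomal protein L18B under the near-constitutive 35S promoter, and all groups share this transgene. The tag allows ribosomes to be captured on anti-FLAG beads with the mRNAs they carry. Captured RNA is termed polysomal, and RNA of the same extract without capture is termed total. Both were taken from seedlings kept in light for 1 h, from seedlings held in darkness for 1 h from the middle of the light period, and from seedlings given 10 min of light after that darkness (reillumination). Each of the 6 groups has 2 Affymetrix arrays from separate biological replicate experiments. The promoter marks ribosomes in most cell types, so neither pool resolves cells, and the seedlings grew on a medium that contained sucrose.

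When photosynthesis stops, sugars made in the leaf fall and plants turn to other sources of carbon and energy. The kinase complex SnRK1, the plant relative of SNF1 in yeast and AMPK in mammals, works in this switch, and AKINBETA1 (AT5G21170) encodes one of its regulatory beta subunits. PPDK (AT4G15530) encodes pyruvate orthophosphate dikinase, which interconverts pyruvate and phosphoenolpyruvate and helps carbon from amino acids to be reused. ATL8 (AT1G76410) encodes a RING-H2 protein of the ATL family of ubiquitin ligases.

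The values are log2 expression from RMA, a method that makes arrays alike in distribution, so every change is relative to the rest of the array. Array medians lay between log2 6.04 and 6.19. Across probe sets, replicate arrays had a Pearson correlation of 0.993 to 0.995. PPDK lay between percentiles 80.0 and 96.5 of its array, ATL8 between 58.4 and 90.2, and AKINBETA1 between 89.3 and 97.8, so none of them was near the dim end. Of 10 green tissue markers 3 had a probe set of their own (RCA, PRK and SBPASE), and they lay at percentile 95.7 or above on every array. Of 10 root markers 2 had one: PYK10 lay at percentile 99.7 or above, and EXPA7 between 30.6 and 47.4. The log2 ratio of 3' to 5' control probe sets for actin, GAPDH and ubiquitin, a sign of RNA quality, is given beside the results where the groups compared did not overlap in it.

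The first comparison asks how 1 h of darkness changed the 3 transcripts, first in total RNA. All 3 genes were higher in darkness. PPDK read log2 10.59 and 10.66 in dark total RNA, against 9.00 and 8.75 in light total RNA. The lowest dark array stood well above the highest light array. PPDK thereby rose 3.37-fold, or log2 1.75 ± 0.12 (standard error of the fit, n = 2 arrays per group, limma adjusted p = 8.22e-06). ATL8 read 8.46 and 8.44 in dark total RNA, against 7.05 and 6.81 in light total RNA, again without overlap. Its rise was 2.87-fold, log2 1.52 ± 0.14 (limma adjusted p = 5.52e-05). AKINBETA1 read 10.72 and 10.50 in dark total RNA, against 9.53 and 9.19 in light total RNA. These arrays did not overlap either, although both groups spread more than those of PPDK in darkness. AKINBETA1 rose 2.38-fold, log2 1.25 ± 0.14 (limma adjusted p = 0.000203). With 2 arrays a group such separation is common: 20.2% of all probe sets had both dark arrays above both light arrays in total RNA.

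Of all 22746 probe sets, 4.38% were called as higher in dark total RNA and 5.07% as lower at a limma adjusted p under 0.05, and all 3 members were among those higher. With the replicate as a block, calls in either direction numbered 3593 instead of 2151. Ordered by log2 change, PPDK was at place 71, ATL8 at 131 and AKINBETA1 at 215 from the highest. The members were chosen with earlier results known, so their count and places are not independent evidence of a rise. The median over all probe sets was log2 -0.02, and their 95th percentile was 0.49. In both replicates the order was the same: PPDK changed by 1.60 and 1.91, ATL8 by 1.42 and 1.63, and AKINBETA1 by 1.19 and 1.31.

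**Figure D1:**
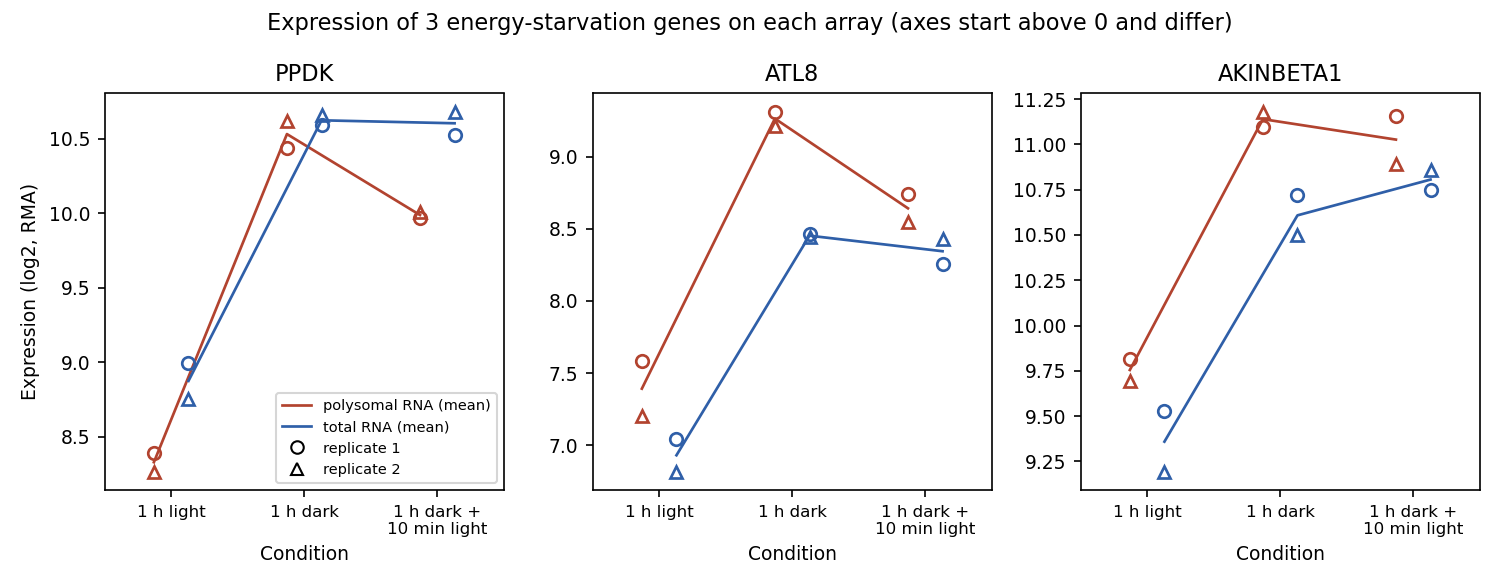
Log2 expression of PPDK, ATL8 and AKINBETA1 on each of the 12 arrays (vertical axes, log2, each gene on its own range) in the 3 conditions, with circles and triangles for the replicates and lines through the means of polysomal (red) and total RNA (blue). Every dark and reilluminated array stands above the light arrays of the same pool, and polysomal PPDK and ATL8 sit lower after reillumination than in darkness.

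In polysomal RNA the rise was seen again. PPDK read log2 10.44 and 10.62 in dark polysomal RNA, against 8.39 and 8.26 in light polysomal RNA. This is a 4.61-fold rise, log2 2.20 ± 0.12 (limma adjusted p = 1.48e-06). The ligase gene ATL8 read 9.31 and 9.22 in dark polysomal RNA, against 7.58 and 7.20 in light polysomal RNA, where the 2 light arrays were the most unlike pair of that gene. It rose 3.66-fold, log2 1.87 ± 0.14 (limma adjusted p = 9.44e-06). The subunit gene AKINBETA1 read 11.10 and 11.18 in dark polysomal RNA, against 9.81 and 9.70 in light polysomal RNA, and so rose 2.61-fold, log2 1.38 ± 0.14 (limma adjusted p = 7.18e-05). No dark array of any member overlapped a light array, which was so, with darkness higher, for 25.3% of all probe sets.

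Over all probe sets 8.49% were called as higher in dark polysomal RNA and 8.68% as lower, and the 3 members were among those higher. PPDK was at place 41, ATL8 at 80 and AKINBETA1 at 219 from the highest of 22746. The replicates gave 2.05 and 2.36 for PPDK, 1.73 and 2.01 for ATL8, and 1.28 and 1.49 for AKINBETA1, so the order of the 3 genes was that of total RNA in both. These calls and those in total RNA held with each of the 12 arrays left out in turn.

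Markers of plant parts and signs of RNA quality stand beside this rise. Of the 5 tissue markers PRK, for phosphoribulokinase of carbon fixation, was called lower in dark than light polysomal RNA (log2 -0.53 ± 0.12, limma adjusted p = 0.0113), a call lost at 0.109 without replicate 1 of darkness, and at 0.0652 and 0.0514 without replicates 1 and 2 of light. No other marker value was called in either pool, with limma adjusted p between 0.0674 (PRK in total RNA) and 0.925. With the replicate as a block RCA in polysomal RNA and PRK and SBPASE in total RNA were called lower as well (adjusted p = 0.0166, 0.0371 and 0.0401). The summed level of the 3 green tissue markers was log2 13.53 to 13.68 in dark and 13.90 to 14.07 in light polysomal RNA, and 13.99 to 14.19 in dark and 14.34 to 14.39 in light total RNA. The 2 root markers summed to 13.10 to 13.26 in dark and 12.92 to 12.99 in light polysomal RNA, and overlapped in total RNA, at 13.06 to 13.34 in darkness and 13.28 to 13.37 in light. The 3' to 5' ratio of ubiquitin was 1.31 to 1.33 in dark and 1.43 to 1.52 in light polysomal RNA, that of actin 3.86 to 3.94 and 3.75 on both arrays, and that of GAPDH 0.98 to 1.25 in dark and 0.89 to 0.92 in light total RNA. In whole seedlings fewer cells of a type and less RNA per cell cannot be told apart. The part of these values in the rise of the 3 genes was not tested.

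The comparison of reillumination with darkness asks what 10 min of returned light changed. In total RNA none of the 3 genes was called. PPDK read log2 10.52 and 10.68 in reilluminated total RNA, against 10.59 and 10.66 in dark total RNA, and the arrays overlapped (log2 difference -0.02, 95% interval -0.29 to 0.24). ATL8 read 8.26 and 8.43 in reilluminated total RNA, against 8.46 and 8.44 in dark total RNA (-0.11, interval -0.42 to 0.21). AKINBETA1 read 10.75 and 10.86 in reilluminated total RNA, against 10.72 and 10.50 in dark total RNA (0.20, interval -0.11 to 0.51). The adjusted p from limma was 0.998 for each of them. The background was 0%: limma called 0 of 22746 probe sets, with 980 at an unadjusted p under 0.05, and 12 were called with the replicate as a block.

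In polysomal RNA PPDK and ATL8 were lower after 10 min of light. PPDK read log2 9.97 and 10.01 in reilluminated polysomal RNA, against 10.44 and 10.62 in dark polysomal RNA, with no overlap. It fell by 0.54 ± 0.12 on the log2 scale, which left 0.686 times the dark level (limma adjusted p = 0.02). ATL8 read 8.74 and 8.55 in reilluminated polysomal RNA, against 9.31 and 9.22 in dark polysomal RNA, also with no overlap. It fell by 0.62 ± 0.14 on the log2 scale, to 0.650 times the dark level (limma adjusted p = 0.0234). Both falls appeared in each replicate: -0.47 and -0.61 for PPDK, and -0.57 and -0.67 for ATL8. The share of all probe sets parted without overlap was not counted for this comparison. Such parting was common in the other comparisons of polysomal RNA. Dark arrays stood wholly above light arrays for 25.3% of all probe sets, and reilluminated arrays above light arrays for 22.9%. The lack of overlap is therefore weak evidence of a fall on its own.

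AKINBETA1 was not called in that comparison. It read 11.16 and 10.89 in reilluminated polysomal RNA, against 11.10 and 11.18 in dark polysomal RNA. One reilluminated array lay between the dark arrays and the other below both, and the replicate differences were 0.06 and -0.29. The difference was -0.11 with a 95% interval from -0.42 to 0.20 (limma adjusted p = 0.731). Whether AKINBETA1 differed from PPDK and ATL8 in this response was not tested.

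In this comparison 3.2% of probe sets were called lower and 4.62% higher, so 2 of 3 members stood in the smaller class. The calls were 1051 higher and 729 lower, 1199 and 451 with each array centred on its median, and 1750 and 1680 with the replicate as a block. Each of the calls of PPDK and ATL8 was lost on leaving out any of 3 arrays. The adjusted p of PPDK became 0.149 on leaving out the dark polysomal array of replicate 2, and 0.086 and 0.0944 on leaving out the reilluminated polysomal arrays of replicates 1 and 2. For ATL8 it became 0.12 and 0.0906 without the dark polysomal arrays of replicates 1 and 2, 0.161 without the reilluminated polysomal array of replicate 2, and 0.053 when only polysomal arrays were fitted. None of the 5 tissue markers was called in this comparison, and the summed green markers overlapped, while the root markers summed to log2 12.92 to 13.01 in reilluminated and 13.10 to 13.26 in dark polysomal RNA. The 3' to 5' ratio of actin was 3.59 to 3.79 in reilluminated and 3.86 to 3.94 in dark polysomal RNA, and that of GAPDH 1.11 to 1.40 and 0.90 to 1.02. The part of these values in the falls was not tested.

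**Figure D2:**
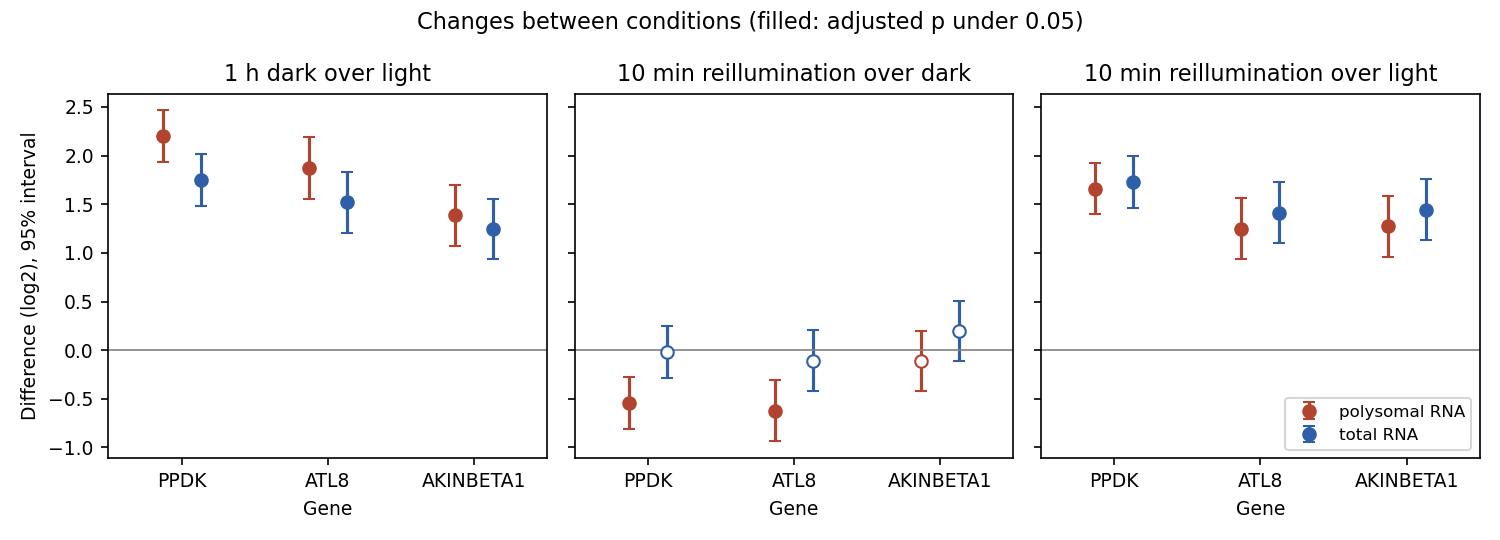
Log2 differences between conditions (vertical axis) with 95% intervals for the 3 genes in polysomal (red) and total RNA (blue), filled where the limma adjusted p was under 0.05. All 6 dark over light and all 6 reillumination over light differences are called, and of the 6 reillumination over dark differences only those of PPDK and ATL8 in polysomal RNA are, at -0.54 and -0.62.

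Set against light, the 3 genes were still high after 10 min of returned light. In polysomal RNA the difference was log2 1.66 ± 0.12 for PPDK (limma adjusted p = 1.43e-05), 1.25 ± 0.14 for ATL8 (0.000265 as the adjusted p) and 1.27 ± 0.14 for AKINBETA1 (0.000211 as the adjusted p). In total RNA it was 1.73 ± 0.12 for PPDK, 1.41 ± 0.14 for ATL8 and 1.45 ± 0.14 for AKINBETA1 (limma adjusted p = 1.42e-05, 0.000115 and 9.28e-05). Each of the 6 reilluminated pairs lay wholly above its light pair, as did 22.9% of all probe sets in polysomal and 22.7% in total RNA. Of all probe sets 4.78% were called higher than in light in polysomal and 4.07% in total RNA, and the members were called in both. The replicate block brought calls in either direction to 3409 instead of 2020 in polysomal and 3111 instead of 1800 in total RNA, and leaving out single arrays took them to as few as 988 and 837. The 3' to 5' ratio of actin was 3.72 to 4.17 in reilluminated and 4.31 to 4.59 in light total RNA, and that of GAPDH 0.98 to 1.05 and 0.89 to 0.92. PRK was called lower than in light in polysomal RNA (log2 -0.44 ± 0.12, limma adjusted p = 0.0471). That call was lost without single arrays, with centred arrays (limma adjusted p = 0.0629) and with only polysomal arrays fitted (0.0999). The summed green markers were at log2 13.66 to 13.78 in reilluminated and 13.90 to 14.07 in light polysomal RNA. In total RNA they were at 14.07 to 14.21 and 14.34 to 14.39, while the summed root markers overlapped in both pools. The part of these values in the result was not tested.

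Expressed as a share of the log2 rise in darkness, the difference from light after reillumination was 75.3% for PPDK, 66.8% for ATL8 and 91.8% for AKINBETA1 in polysomal RNA. In total RNA the shares were 98.8%, 92.9% and 116%. These shares share their light arrays above and below the line and are given as a description.

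Polysomal over total RNA shows how far a transcript was enriched in the ribosome capture relative to other transcripts. PPDK and ATL8 stood on opposite sides of the array average in light. The PPDK transcript read log2 8.39 and 8.26 in polysomal and 9.00 and 8.75 in total RNA of light seedlings, and was lower in the capture by log2 -0.55 ± 0.12 (limma adjusted p = 0.00477). ATL8 was higher in the capture, with 7.58 and 7.20 in polysomal and 7.05 and 6.81 in total RNA (log2 0.46 ± 0.14, limma adjusted p = 0.028). AKINBETA1, at 9.81 and 9.70 in polysomal and 9.53 and 9.19 in total RNA, was at 0.40 ± 0.14 and missed the threshold (limma adjusted p = 0.0513), but passed it with the replicate as a block (adjusted p = 0.0188).

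In darkness PPDK was at -0.09 ± 0.12 (limma adjusted p = 0.669), with overlapping polysomal and total arrays. ATL8 was at 0.81 ± 0.14 (limma adjusted p = 0.00187) and AKINBETA1 at 0.53 ± 0.14 (limma adjusted p = 0.0175). After reillumination PPDK was again lower in the capture, at -0.62 ± 0.12 (limma adjusted p = 0.00301). ATL8 was then at 0.30 and AKINBETA1 at 0.22, and neither was called (limma adjusted p = 0.156 and 0.294).

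The background for these 3 comparisons was high: 32.3% of probe sets were called in one direction or the other in light, 23.5% in darkness and 27.4% after reillumination. A call of this kind is therefore common, and the 2, 2 and 1 members called are to be read against it. The split into higher and lower calls also depended on scaling, with 3332 and 4006 in light, against 4677 and 3000 with each array centred on its median. That centring moved the median of all probe sets by 0.11 in light and after reillumination, and by 0.05 in darkness. PPDK stayed below 0 and ATL8 and AKINBETA1 above 0 under both other scalings.

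Tissue markers also stood apart between the pools. In light the root hair gene EXPA7 was at log2 -1.11 ± 0.19, SBPASE at -0.78 ± 0.12, PYK10 at -0.37 ± 0.12 and PRK at -0.35 ± 0.12 in polysomal over total RNA (limma adjusted p = 0.000877, 0.000668, 0.0361 and 0.044), and RCA at -0.32 ± 0.13 was not called (0.0867 as the adjusted p). In darkness and after reillumination EXPA7 and the 3 green markers were called lower in the capture, from -0.98 and -1.04 for EXPA7 to -0.43 and -0.40 for the highest of the others, and PYK10 was not called. With the replicate as a block RCA in light and PYK10 after reillumination were called too (adjusted p = 0.0281 and 0.0306). The calls of EXPA7 in the 3 conditions and of SBPASE in light held under every alternative, and the others were each lost under 1 or more of them. The 3' to 5' ratio of actin was 3.75 in polysomal and 4.31 to 4.59 in total RNA of light seedlings, and that of ubiquitin was 1.31 to 1.33 and 1.57 to 1.58 in darkness, and 1.33 to 1.44 and 1.55 to 1.59 after reillumination. That of GAPDH was 0.93 to 1.33 and 0.89 to 0.92 in light, and 1.11 to 1.40 and 0.98 to 1.05 after reillumination. The part of these values in the polysomal over total values of the 3 genes was not tested.

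Single arrays decided some of the polysomal over total calls of the 3 genes. With the light total array of replicate 1 left out, PPDK in light was at an adjusted p of 0.0528. ATL8 in light was at 0.241 (log2 0.27) with the light polysomal array of replicate 1 left out, and at 0.184 with the light total array of replicate 2 left out. In darkness AKINBETA1 was at 0.057, 0.0924 and 0.118 when the fit lacked the dark polysomal array of replicate 1, that of replicate 2 and the dark total array of replicate 2. AKINBETA1 in light, in turn, was called when the fit lacked the light total array of replicate 1 (adjusted p = 0.027).

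**Figure D3:**
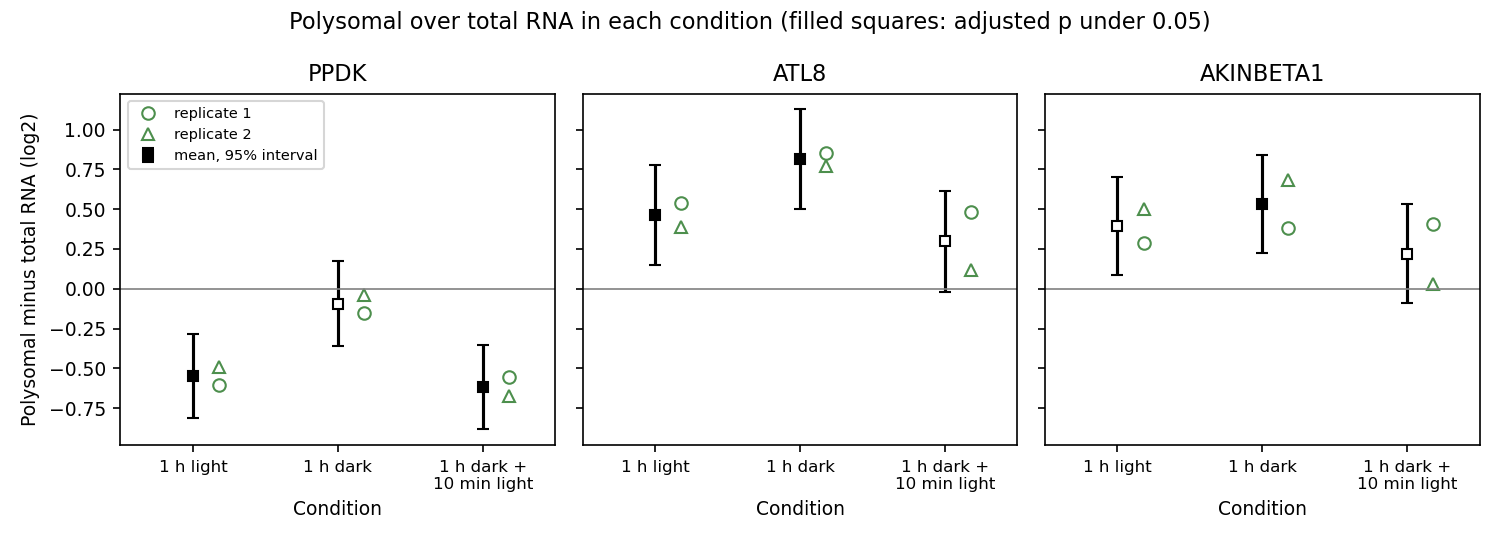
Polysomal minus total RNA (vertical axis, log2) for the 3 genes in each condition: squares give the mean with its 95% interval, filled where the limma adjusted p was under 0.05, and circles and triangles the replicates. PPDK sits at -0.55, -0.09 and -0.62 in light, darkness and reillumination, while ATL8 and AKINBETA1 are above 0 in all 3 conditions and highest in darkness, at 0.81 and 0.53.

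Whether enrichment in the capture changed between conditions was tested as an interaction. Darkness minus light, the difference in enrichment was 0.45 for PPDK (95% interval 0.08 to 0.83), 0.35 for ATL8 (interval -0.09 to 0.79) and 0.14 for AKINBETA1 (interval -0.30 to 0.57). Reillumination minus darkness, it was -0.52 for PPDK (interval -0.90 to -0.15), -0.51 for ATL8 (interval -0.96 to -0.07) and -0.31 for AKINBETA1 (interval -0.75 to 0.13). The PPDK intervals leave out 0 on their own, as does that of ATL8 at the return of light. None of the 3 genes passed after adjustment over all probe sets. The limma adjusted p was 0.198, 0.428 and 0.81 at the start of darkness, and 0.183, 0.269 and 0.549 at the return of light, in the same order.

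With the extract as a block, which pairs the pools of one seedling batch, the lowest of these adjusted p were 0.0924 and 0.0727, both for PPDK. Calls were rare here in general, at 1.09% of probe sets for darkness minus light and 0.994% for reillumination minus darkness. The numbers of calls were 247 and 226, and 1712 and 1086 with the replicate as a block. Between reillumination and light the enrichment differed by -0.07 for PPDK, -0.16 for ATL8 and -0.17 for AKINBETA1, with limma adjusted p of 1.0 each. There limma called 0 of all probe sets, with and without the block, and 621 had an unadjusted p under 0.05. The falls of PPDK and ATL8 in polysomal RNA at the return of light were therefore called within that pool, while their difference from total RNA was not.

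Over the 6 groups the levels of a gene can be ordered. For PPDK the order ran from dark total (mean log2 10.62) through reilluminated total (10.60) and dark polysomal (10.53) to reilluminated polysomal (9.99), light total (8.87) and light polysomal RNA (8.33). The first 3 of these overlapped from neighbour to neighbour, and the later ones did not. For ATL8 the order was dark polysomal (9.26), reilluminated polysomal (8.64), dark total (8.45), reilluminated total (8.34), light polysomal (7.39) and light total RNA (6.93). No neighbours overlapped, but dark and reilluminated total RNA were not called different. AKINBETA1 ran from dark polysomal (11.14) and reilluminated polysomal (11.03), which overlapped, to reilluminated total (10.81), dark total (10.61), light polysomal (9.75) and light total RNA (9.36). Its reilluminated and dark total RNA were not called different (limma adjusted p = 0.998). Nor were its pools after reillumination (0.294) or in light (0.0513). Separation is common with 2 arrays a group: both dark arrays stood above both light arrays for 20.2% of all probe sets in total and 25.3% in polysomal RNA. For the other neighbours this share was not counted.

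Across the 12 arrays ATL8 and AKINBETA1 followed each other more closely than either followed PPDK. The Pearson correlation of their log2 values was 0.967, and it was 0.832 between ATL8 and PPDK and 0.845 between AKINBETA1 and PPDK. Of 13512 other probe sets tied to 1 gene, ATL8 was at place 7 in likeness to AKINBETA1, and PPDK was at place 257. The arrays share extracts and conditions, so these values describe the pattern and carry no test.

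By the same measure the probe sets most like PPDK were those of AT5G18630 (r = 0.997), TET8, which encodes a tetraspanin (0.991), AT2G41640 (0.983), MCCB (0.983) and AT1G02660 (0.982). Their changes from light to darkness in total RNA lay between 0.84 for AT5G18630 and 2.46 for AT1G02660, and each was lower in the capture in light, from -0.22 for AT5G18630 to -0.74 for AT1G02660. For ATL8 they were WRKY22 (0.982), a transcription factor gene, AT1G12450, AT5G46710 and AT1G32700 (0.981 each) and AT5G64190 (0.980). For AKINBETA1 they were AT1G07040 (0.983), AT5G64190 (0.981), AT1G12450 (0.979), AT1G11380 (0.977) and AT5G39020 (0.975). The genes most like ATL8 and AKINBETA1 were all above 0 in polysomal over total RNA in light, from 0.05 for AT5G39020 to 0.80 for WRKY22. AT5G64190 and AT1G12450 stood in both lists. All these genes were picked by likeness over the same arrays. The direction of their changes and of their enrichment therefore follows from the choice and is no separate result.

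Related genes were set beside the 3 members from lists of 82 genes, of which 11 had a probe set of their own. Of 8 genes for other SnRK1 subunits and upstream kinases 2 were measured, and both encode beta subunits. KINbeta2 (AT4G16360) moved opposite to AKINBETA1. It read log2 8.52 and 8.63 in dark polysomal RNA, against 9.01 and 9.11 in light polysomal RNA, and fell by 0.48 ± 0.11 on the log2 scale (limma adjusted p = 0.0123). In total RNA KINbeta2 read 8.09 and 8.01 in darkness, against 8.54 and 8.69 in light, and fell by 0.56 ± 0.11 (limma adjusted p = 0.00918). Neither pair of groups overlapped, and the share of all probe sets parted in this direction was not counted. The opposite parting, with darkness higher, held for 25.3% of all probe sets in polysomal and 20.2% in total RNA. Of all probe sets 8.68% were called lower in dark polysomal and 5.07% in dark total RNA.

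The 2 falls of KINbeta2 were lost when some arrays were left out. In polysomal RNA the adjusted p was 0.084 when replicate 1 of darkness was left out and 0.0908 when replicate 2 of light was left out. In total RNA it was 0.0738 and 0.0921 when replicate 2 of darkness or of light was left out. KINbeta2 remained below its light level after reillumination, at -0.61 ± 0.11 in polysomal and -0.52 ± 0.11 in total RNA (limma adjusted p = 0.00624 and 0.0153). Those calls too were lost without single arrays, at 0.0624 and 0.0594 without replicate 2 of reillumination or of light in polysomal RNA, and at 0.135 and 0.133 without the same replicates in total RNA.

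KINbeta3 (AT2G28060), the other beta subunit, was at -0.34 in dark over light polysomal RNA (limma adjusted p = 0.117, and 0.0492 with the replicate as a block) and at 0.08 in total RNA (limma adjusted p = 0.84). It was higher in the capture than in total RNA in light, by log2 0.94 ± 0.13 (limma adjusted p = 0.000321). The 3 measured beta subunit genes thus had polysomal over total values of 0.40 for AKINBETA1, 0.45 for KINbeta2 and 0.94 for KINbeta3 in light.

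Of 18 dark-induced and sugar-starvation markers 5 were measured, and all 5 were higher in darkness in both pools, where 8.49% of all probe sets in polysomal and 4.38% in total RNA were called higher. The list holds genes already seen to rise in these data, so its count is not independent evidence of a direction. Their median was log2 1.42 in polysomal and 1.03 in total RNA, where all probe sets had medians of -0.02 in both. Among them is MCCA, 1 of the 2 subunit genes of the methylcrotonyl-CoA carboxylase that takes part in the breakdown of leucine. It rose by 2.13 ± 0.13 in polysomal and 1.64 ± 0.13 in total RNA. IVD, for isovaleryl-CoA dehydrogenase of the same route, rose by 1.49 ± 0.12 and 1.43 ± 0.12 in the same order. MCCB, for the other carboxylase subunit, rose by 1.42 ± 0.10 and 1.03 ± 0.10. The limma adjusted p of these 3 genes were between 2.12e-06 and 8.11e-05.

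The locus AT3G15450 rose by 1.24 ± 0.13 in polysomal and 0.99 ± 0.13 in total RNA, and ETFQO, whose protein passes electrons from such breakdown to the respiratory chain, by 0.69 ± 0.16 and 0.70 ± 0.16 (limma adjusted p = 0.0102 and 0.0155). ETFQO lost its call without single arrays, with adjusted p of 0.0953 and 0.0856 in polysomal RNA without replicate 2 of darkness or of light. In total RNA they were 0.149 without replicate 2 of darkness, and 0.0908 and 0.0705 without replicates 1 and 2 of light. At the return of light none of these 5 markers was called in either pool (limma). Few probe sets were: 0 of 22746 in total RNA, and 3.2% lower and 4.62% higher in polysomal RNA. The absence of marker calls is therefore no result about the markers. The markers whose unadjusted interval left out 0 were MCCA and MCCB in polysomal RNA. MCCA was at -0.34 (95% interval -0.62 to -0.06) and MCCB at -0.26 (interval -0.49 to -0.04), with limma adjusted p of 0.14 and 0.158.

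In light PPDK and most of the markers were on the same side of the array average in the capture. The measured green and root markers were on that side too, and 4006 of 22746 probe sets were called lower. In light MCCA was at -1.11 ± 0.13, MCCB at -0.60 ± 0.10 and IVD at -0.36 ± 0.12 in polysomal over total RNA, beside -0.55 ± 0.12 for PPDK, while ETFQO was at -0.96 ± 0.16 and AT3G15450, not called, at -0.11 ± 0.13. The call of IVD (limma adjusted p = 0.0349) was lost with each array centred on its median (0.132), and on leaving out the light polysomal array of replicate 2 (0.284) or a light total array (0.15 and 0.0826 for replicates 1 and 2). ATL8 and AKINBETA1, at 0.46 and 0.40, had the opposite sign. That difference between genes was not tested. In darkness 2 of the 5 markers were called lower in the capture, as were 2691 of all 22746 probe sets. PPDK was not called there, and AT3G15450 was at 0.14, not called.

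Other lists held few measured genes. Most probe sets were not called in dark over light RNA: 8.49% were called higher and 8.68% lower in polysomal RNA, and 4.38% and 5.07% in total RNA. A gene without a call is therefore common. Of 9 S1 and C group bZIP transcription factors, some of which are known to act with SnRK1 in starvation, 2 were measured and neither was called in dark over light RNA by limma without a block. bZIP53 was at 0.32 in polysomal and 0.37 in total RNA (limma adjusted p = 0.138 and 0.119), and was called with the replicate as a block (0.0379 and 0.026). bZIP44 was at -0.34 and -0.04 (limma adjusted p = 0.274 and 0.949), and was called lower in polysomal RNA with the block (0.036). Of 13 genes under ATL names other than ATL8 2 were measured, ATL5 and ATL63, and neither was called. They were at -0.09 (95% interval -0.38 to 0.20) and -0.01 (interval -0.34 to 0.33) in polysomal, and at 0.05 and -0.04 in total RNA, and lay between percentiles 34.4 and 43.5 of their arrays. The lists of 16 pyruvate, phosphoenolpyruvate and malate enzymes, 11 genes of amino acid nitrogen salvage and 8 trehalose-6-phosphate synthases had 0 members with a probe set of their own, and are not analysed here.

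**Figure D4:**
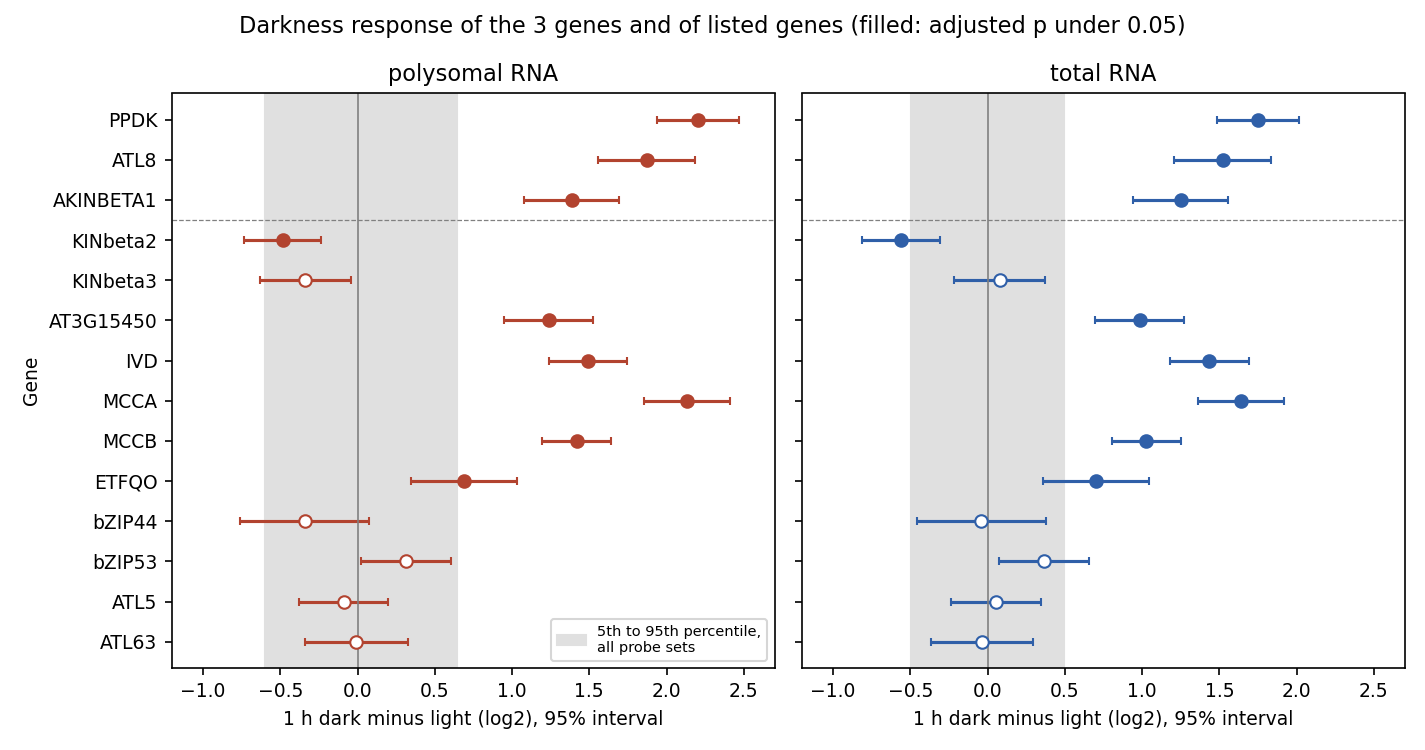
Change from light to 1 h of darkness (horizontal axis, log2, 95% interval) in polysomal (left) and total RNA (right) for the 3 genes, above the dashed line, and for the 11 measured list genes, filled where the limma adjusted p was under 0.05. The grey band spans the 5th to 95th percentile of all probe sets, -0.60 to 0.65 in polysomal and -0.49 to 0.49 in total RNA. The 3 genes and the 5 starvation markers lie to the right of the band in both pools, ETFQO closest to it, and KINbeta2 lies below 0 within the band in polysomal RNA and to the left of it in total RNA.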

How the data were processed

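Labelled RNA was measured on 12 Affymetrix arrays. RMA and affy are the tools the authors name, per the submitters' processing notes, with no version. The deposited table holds 1 log2 expression value per probe set and array. Coordinates are left out, since the genome build is not given in the sources used here. Of 22810 probe sets 64 controls were set aside. Genes were named through the platform annotation (13513 probe sets with 1 gene, 503 with several, 8730 not listed) and a reference table of assembly TAIR10.1, which matched 13436.

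For each probe set limma 3.58.1, run in R 4.3.3, estimated 6 group means from the 12 arrays together (6 residual and 5.48 prior degrees of freedom). The fit was tested on simulated data with independent noise on each array, without the replicate or extract effects of real samples. Tests of 12 comparisons were two-sided, with Benjamini-Hochberg adjustment over 22746 probe sets and a threshold of 0.05. Each ± gives the fit's standard error. Precision is limited by the number of arrays, with a median standard error of 0.13 for a difference and 0.19 for an interaction. The labels give independent replicate experiments and 1 extract for both pools. Deviations of same-numbered arrays correlated at 0.29 to 0.51 between all groups, so the numbers pair the samples. They correlated at 0.295 to 0.486 within an extract and at 0.29 to 0.476 between groups that share neither extract nor pool. The main fit has no term for this pairing, so its tests treat the arrays as independent.

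The members and lists were chosen with earlier results of these data known, and the starvation list holds genes already seen to rise. Named genes were the 3 members, up to 3 called genes per list by change in polysomal RNA, and the 5 probe sets with the highest Pearson correlation to each member. AT3G15450, ETFQO, KINbeta3 and the bZIP and ATL genes fall outside this rule and were named after their values were seen. Alternatives were a replicate or extract block, median centring, repeated quantile normalization, a prior trend, a filter on dim probe sets, fits within a pool and leaving out each array. Each member has a single probe set, so no other probe set could be tried. Python 3.11.15 with matplotlib 3.10.9 drew the figures.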

Additional observations from a re-analysis of the deposited data

How the results depend on the processing

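Of 648 alternative values of the 36 member results, 617 kept their direction and their side of the threshold. Many alternatives could not move the estimate. The blocks, the prior trend, the dim filter and leaving out an array outside the comparison keep the log2 value as it is. The count of 617 is therefore no measure of stability. The replicate block changed 1 member call, AKINBETA1 in polysomal over total RNA in light (log2 0.40, adjusted p = 0.0188 with the block), and it changed no other. The same result was called with the extract as a block, a prior trend or dim probe sets left out (0.40 each, adjusted p = 0.023, 0.0381 and 0.046) and with arrays centred on their medians (0.51). That centring also brought ATL8 after reillumination past the threshold (0.41). ATL8 in reillumination over dark polysomal RNA (-0.62) was not called when only that pool was fitted. Leaving out single arrays turned the sign of uncalled values near 0, ended calls or, for AKINBETA1 in polysomal over total RNA in light, made a call (5 arrays, adjusted p = 0.027 to 0.0496), within these ranges. PPDK ranged from -0.63 to -0.45 in reillumination over dark polysomal RNA, from -0.10 to 0.058 in total RNA, from -0.67 to -0.42 in polysomal over total RNA in light, and from -0.19 to 0.052 in the change of that ratio from light to reillumination. ATL8 ranged from -0.72 to -0.53 in reillumination over dark polysomal RNA, in polysomal over total RNA in light from 0.27 to 0.65, and in the ratio's change from light to reillumination from -0.36 to 0.027. AKINBETA1 ranged from -0.25 to 0.019 in reillumination over dark polysomal RNA, from 0.42 to 0.64 and 0.23 to 0.56 in polysomal over total RNA in darkness and light, and from -0.031 to 0.30 in the ratio's change from light to darkness. The cause was not tested. Background counts also moved: with the block, dark over light calls numbered 5743 in polysomal and 3593 in total RNA, instead of 3904 and 2151, and without single arrays they fell to as few as 2124 and 983. Reillumination over light counts in polysomal and total RNA were 3409 and 3111 with the block, instead of 2020 and 1800, and as few as 988 and 837 without single arrays, and reillumination over dark polysomal calls numbered 3430 with it, instead of 1780, and 431 to 1865 with arrays left out. Polysomal over total calls fell from 5339 to as few as 3367 in darkness and from 6228 to as few as 3971 after reillumination without single arrays. Calls for the change of the ratio ranged from 0 to 537 for darkness minus light (1712 with the block) and from 2 to 357 for reillumination minus darkness (1086 with the block). They were 39 higher and 212 lower for darkness minus light with centred arrays, instead of 76 and 171.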
